A study of Mus musculus with 20 samples.

Results

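Genes of the cytosolic ribosomal proteins, the protein subunits of the ribosomes that translate messenger RNA in the cytoplasm, were followed through 12 RNA libraries of sorted mouse CD4 T cells. They were chosen by name alone, as the symbols that begin with Rpl or Rps and a digit, together with Rplp0, Rplp1, Rplp2 and Rpsa and without the Rps6k kinases. The rule found 88 of 22878 gene symbols. Of these, 46 encode large-subunit proteins, 31 encode small-subunit proteins and 8 are paralogs of a subunit gene (Rpl3l, Rpl7l1, Rpl10l, Rpl22l1, Rpl36al, Rpl39l, Rps27l and Rps4y2). The label does not hold for the other 3, which fit the name rule: the pseudogenes Rps19-ps3 and Rpl34-ps1, and Rps19bp1, which encodes a protein that binds a ribosomal protein. The 77 genes of the first 2 classes are called subunit genes here.

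T-bet drives T helper 1 cells, and the study sorted CD4 T cells by reporters of its expression, now or earlier, with 2 libraries in each of 6 RNA groups. In the spleen of naive ZTCE-tdTomato mice, which carry T-bet-ZsGreen-T2A-CreERT2 and the Rosa26-loxP-STOP-loxP-tdTomato reporter on a C57BL/6 background, all sorted cells were CD44high, CD25- and tdTomato+, so both groups had switched on the permanent mark, and they were split into ZsGreen- and ZsGreen+ cells. The lymph node cells came from T-bet-Cre mice with the same tdTomato reporter, also on C57BL/6. Draining nodes were taken on day 16 after immunization with AS15 in complete Freund's adjuvant (CFA), and tetramer-positive cells were sorted as follicular helper T cells (Tfh, CXCR5highPD1high) or other cells (non-Tfh, CXCR5lowPD1low), each as Tomato+ or Tomato-. Tomato is a mark of T-bet expression that may be over, and Tomato- means only that the recombinase had not acted. Nothing in the labels says whether replicates came from separate animals, so every p-value measures the spread between these libraries, which may be technical. In bulk RNA, fewer cells of one kind and less RNA in each cell cannot be told apart.

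A ribosome has a small subunit, which decodes the messenger, and a large subunit, which forms peptide bonds, and each holds 1 copy of most of its proteins. T cells enlarge their pool of ribosomes when they are activated and divide. Transcripts of most ribosomal protein genes, and of several translation factors, start with a C followed by a run of pyrimidines, the 5′ terminal oligopyrimidine (TOP) motif, through which mTOR and LARP1 control how well they are translated. The abundance of such a transcript is therefore not a measure of its translation.

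RefSeq start-site sequence (GRCm38.p6) was found for 65 of the 88 genes, 57 of them subunit genes. Shown are the 4 genes with an entry and the smallest adjusted p in the averaged comparison of Tfh with non-Tfh cells, then Rpl14, the 1 gene called in the spleen, and Rps9, a gene near that threshold with a run of C and T. Each holds 10 bases before the listed start and 20 from it, on the transcribed strand, and capitals mark the longest run of C and T within 5 bases of the start.
Rplp0, chr5:115559457-115559486, plus strand: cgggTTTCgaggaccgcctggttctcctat
Rpl4, chr9:64173377-64173406, plus strand: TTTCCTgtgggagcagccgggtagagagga
Rps3, chr7:99483690-99483719, minus strand: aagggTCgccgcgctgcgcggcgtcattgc
Rpl13a, chr7:45128726-45128755, minus strand: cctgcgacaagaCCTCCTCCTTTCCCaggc
Rpl14, chr9:120571507-120571536, plus strand: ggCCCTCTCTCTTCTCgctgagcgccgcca
Rps9, chr7:3704031-3704060, plus strand: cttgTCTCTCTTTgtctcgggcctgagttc
The run measured 14 bases at Rpl13a, at Rpl14 and at Rpl4, where only its last part lies inside the window, and 9 bases at Rps9. At Rplp0 it was 4 bases and at Rps3 it was 2. A run of at least 8 bases stood at 19 of 57 subunit genes (33.3%) and at 9.63% of 27025 promoters of all genes, and the listed start base was C at 35.1% against 16.2%. In the window from 250 bases before to 50 bases after the start, searched on both strands, CCGGAAG, the core of an ETS site, was present at 40.4% of subunit genes and 9.12% of all promoters. AAGATGG, the core of a YY1 site, was present at 14.0% against 6.48%, the GC box GGGCGG at 59.6% against 35.9%, and TATAAA at 8.77% against 14.2%. Matches of different motifs could overlap, and the first start listed for each gene was used, which need not be the start in these cells.

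Total gene counts ran from 13169783 to 24174594 per library, and the CD4 T cell markers were detected in all 12 (9 genes, summing to 2483 to 4053 RPKM, read counts divided by transcript length and library size). Replicates varied far more in the lymph node (common biological coefficient of variation 0.908) than among spleen libraries (0.0867), so the same difference is harder to call there. Abundant subunit genes differed less between lymph node replicates than all genes above the same floor. For the 48 subunit genes with a mean of at least 10 RPKM, the median absolute difference between the 2 libraries of a lymph node group was 0.23 to 0.31 on the log2(RPKM + 1) scale, against 0.38 to 0.46 for all 5298 genes of at least 10 RPKM. The 2 sets were not matched for level, since 25 of the 48 stood above 100 RPKM, and the part of level was not tested. Some libraries stood apart. Spleen ZsGreen- replicate 1 was low in subunit genes beside its replicate, and the 2 Tomato- replicate 2 libraries held reads of neutrophil genes, and the medians of the comparisons they enter are given without them as well.

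The subunit genes differed in level by more than 3 orders of magnitude, and that order was nearly the same in every library. Highest by mean RPKM over the 12 libraries were Rplp1 (986), a protein of the acidic stalk of the large subunit, Rpl32 (984), Rps14 (949), Rpl4 (877) and Rplp0 (866), which anchors that stalk. These 5 ranked between 23 and 30 among all 22878 symbols. Lowest were Rpl23a (0.531), Rpl36a (0.770), Rpl24 (0.893), Rps23 (0.978) and Rpl28 (1.06). The median subunit gene stood at 32.0 RPKM, with 4 genes under 1, 25 from 1 to 10, 23 from 10 to 100 and 25 above 100. Spearman's rho between the subunit RPKM of any 2 libraries was 0.962 to 0.997 over 66 pairs, a description across genes that share library and transcript length. The 10 genes with the most reads held 67.5% of all reads on the 88 genes, led by Rpl4 and Rplp0, while the 29 subunit genes under 10 RPKM held 0.817%.

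**Figure D1:**
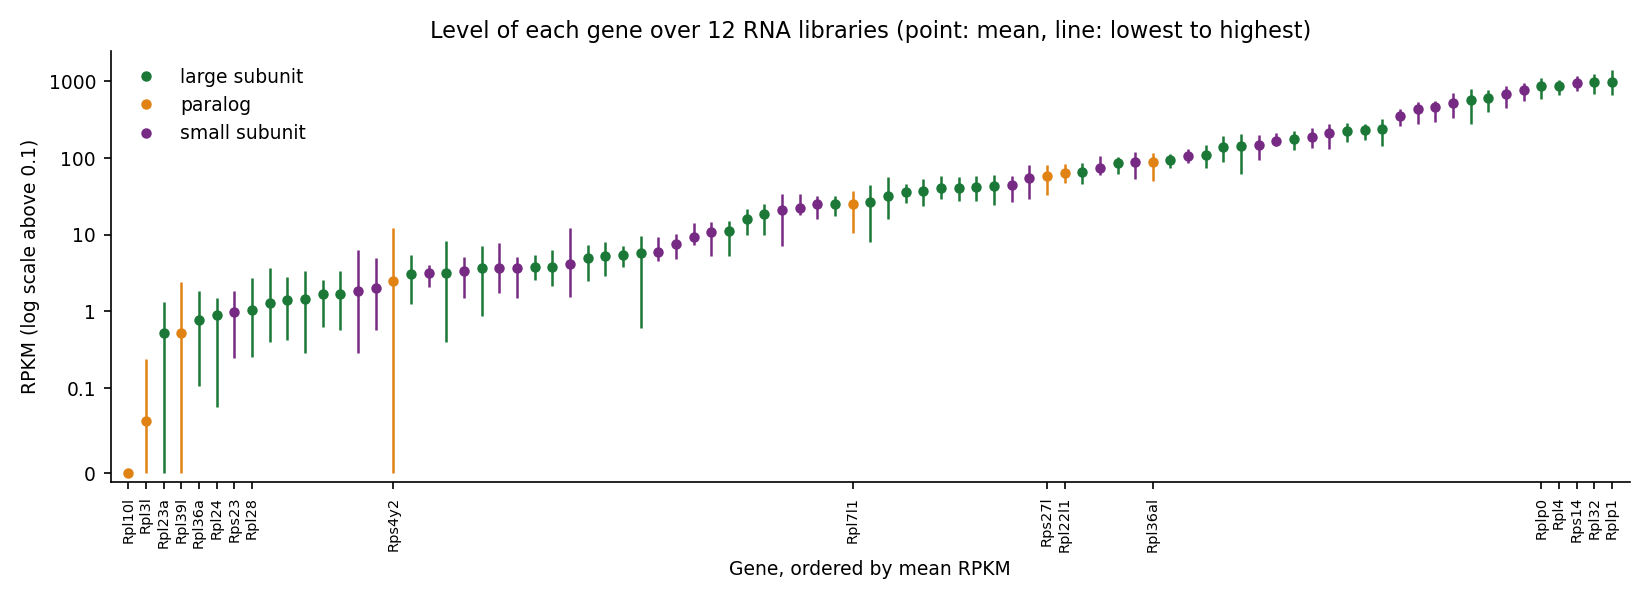
RPKM of the 77 subunit genes and 8 paralogs over the 12 RNA libraries, ordered by mean, on an axis that is logarithmic above 0.1; the paralogs and the 5 highest and 5 lowest subunit genes are named; points are means and lines run from the lowest to the highest library. Subunit genes run from 0.531 (Rpl23a) to 986 (Rplp1), and Rpl10l is at 0.

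Transcripts of proteins that a ribosome holds in equal number were recorded at very unequal levels, and the level was lower where RefSeq names more pseudogenes of the gene. The 15 subunit genes with no named pseudogene had a median of 210 RPKM, the 27 with 1 or 2 had 41.5, the 17 with 3 to 5 had 7.48 and the 18 with 6 or more had 8.11. Spearman's rho between the number of pseudogenes and the mean RPKM was -0.42 over the 77 genes, given as a description. Rpl31 and Rps12, with 23 named pseudogenes each, stood at 4.94 and 1.83 RPKM, but Rps2, with 12, stood at 185 and Rpl30, with 10, at 142. Rpl24 and Rpl11, with none so named, stood at 0.893 and 1.67. Only symbols made of the gene's symbol and -ps were counted, so copies listed under another name would be missed. Reads that match a gene and a processed copy may have been discarded or shared, and the sources used here do not give how the authors counted them. The part of this in the levels was not tested, and the level of a subunit gene under 10 RPKM is uncertain. The comparisons below compare the same gene between libraries counted in the same way.

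The 88 genes took a smaller share of reads in Tfh cells than in non-Tfh cells. They held 1.03% and 1.28% of gene counts in the 2 Tfh Tomato- libraries and 1.18% and 1.34% in the 2 Tfh Tomato+ libraries. In non-Tfh cells they held 1.81% and 1.49% without Tomato, and 1.53% and 1.75% with it. All 4 Tfh libraries lay below all 4 non-Tfh libraries, while Tomato+ and Tomato- libraries overlapped. In the spleen the share was 1.29% and 1.72% in ZsGreen- cells and 1.69% and 1.62% in ZsGreen+ cells, so both ZsGreen+ libraries fell between the ZsGreen- libraries. The 95% Wilson interval of each share reached at most 0.0066 percentage points to either side and covers counting error only. Large-subunit genes took 1.38 to 1.54 times the reads of small-subunit genes in each library.

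**Figure D2:**
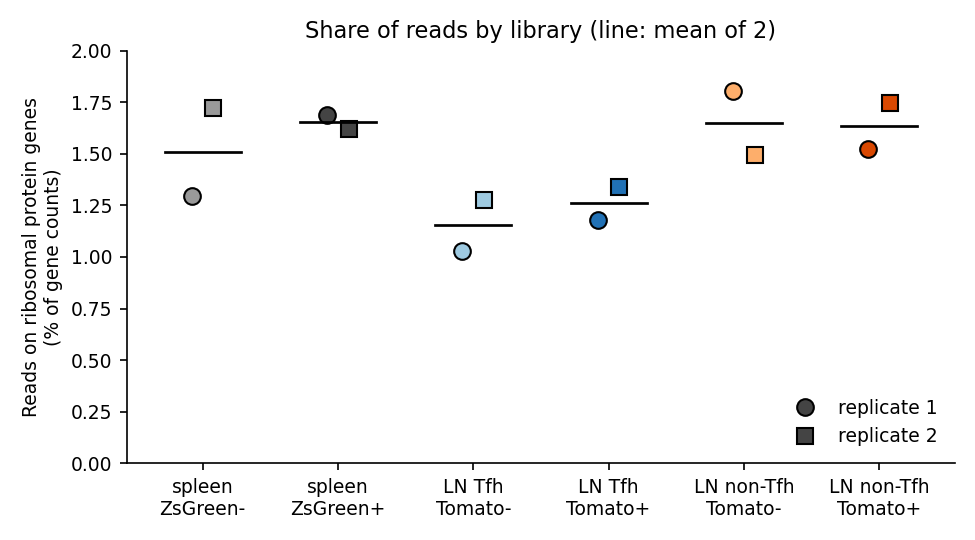
Reads on the 88 genes as a percentage of all gene counts, by group, with 1 point per library (circle, replicate 1; square, replicate 2) and a line at the mean of 2. The 4 Tfh libraries lie between 1.03% and 1.34%, below the 4 non-Tfh libraries at 1.49% to 1.81%, and the 2 spleen ZsGreen- libraries lie far apart at 1.29% and 1.72%.

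The comparison of Tfh with non-Tfh cells asks how the 2 kinds of antigen-specific cells differ at the same T-bet history. Subunit genes were lower in Tfh cells in both Tomato states, but the difference of a single gene rarely passed the test. Averaged over Tomato, with 4 libraries on each side, the 48 subunit genes of at least 10 RPKM had a median log2 fold change of -0.49, a ratio of 0.713, with the middle of the genes between -0.57 and -0.44. The value was negative for 47 of the 48, the exception being Rps27 at 0.04 ± 0.72 (SE). Of the 2 rows of Rps27, the one with the most reads is a RefSeq entry for a non-coding transcript. Over all 11746 genes tested the median was 0.01, with the middle of the genes between -0.44 and 0.55. For large-subunit genes of any level the median was -0.45 and for small-subunit genes -0.47. The 29 subunit genes under 10 RPKM were more scattered, with a median of -0.22 and 21 of 29 negative.

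Of the 84 genes that passed the low-count filter, 1 was called in this average, Rplp0, against 1.07% of all genes tested (0.553% higher and 0.519% lower; edgeR quasi-likelihood test, Benjamini-Hochberg adjusted p below 0.05 over all genes). At an unadjusted p below 0.05, 18 were lower and 1 was higher, against 5.77% and 6.23% of all genes. In 21 of the 84 (25%) all 4 Tfh libraries lay below all 4 non-Tfh libraries, against 2.52% of all genes, and in none of the 84 did they all lie above, against 4.04%. The 21 included Rps2, Rps3, Rps9, Rps14, Rps15, Rps18, Rpl4, Rpl6, Rpl13a, Rpl14, Rpl18 and Rpl32. The 4 genes that failed the filter were Rpl3l, Rpl10l, Rps19-ps3 and Rps4y2.

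Rplp0, which encodes the base of the stalk that recruits elongation factors, measured 596 and 689 RPKM in Tfh Tomato- cells and 758 and 822 in Tfh Tomato+ cells. In non-Tfh cells it measured 1106 and 1074 without Tomato and 896 and 1071 with it. The 4 Tfh libraries were thus all below the 4 non-Tfh libraries, with a log2 fold change of -0.61 ± 0.11 (adjusted p = 0.0496). That call stood just under the threshold: without any 1 of the 8 libraries the adjusted p was 0.0702 to 0.200, with the fold change between -0.68 and -0.53.

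Rpl4, a protein that lines the tunnel of the large subunit, measured 658 to 874 RPKM in the Tfh libraries and 961 to 1029 in the non-Tfh libraries, with a gap between them (log2 fold change -0.47 ± 0.09, adjusted p = 0.0717). Rps3, which lines the messenger entry channel of the small subunit, measured 278 to 381 against 423 to 517 RPKM (-0.57 ± 0.12, adjusted p = 0.0855). Rpl13a, known also as part of an interferon-controlled translation block, measured 394 to 539 against 584 to 775 RPKM (-0.63 ± 0.13, adjusted p = 0.0855). Rpl14 measured 87.5 to 115 against 146 to 192 RPKM, which does not overlap either (-0.76 ± 0.18, adjusted p = 0.124). Rps14, needed to mature the small subunit, measured 764 to 877 against 1031 to 1186 RPKM, again without overlap (-0.48 ± 0.11, adjusted p = 0.126). None of these 5 passed the adjusted threshold.

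**Figure D3:**
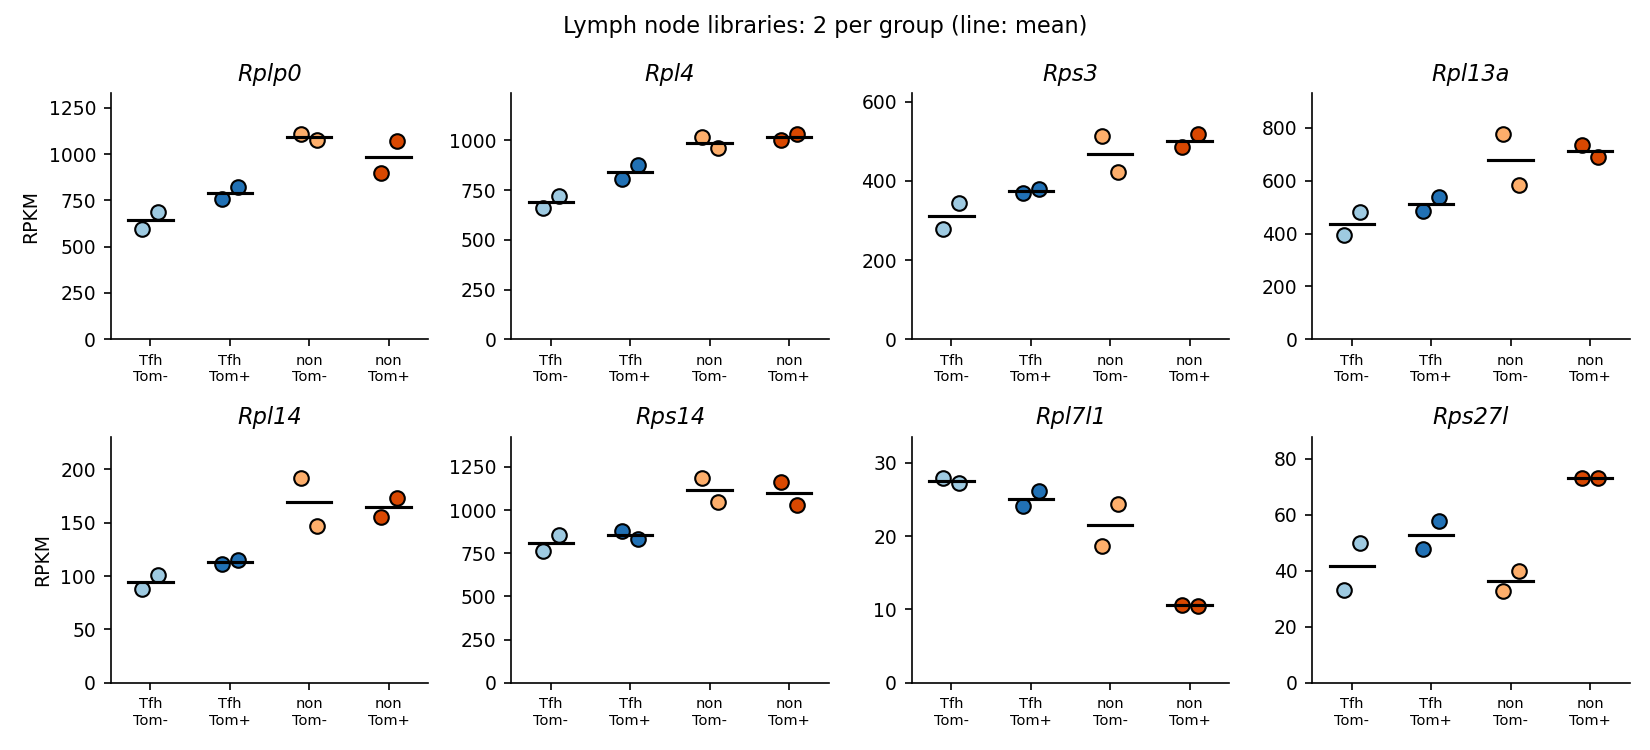
RPKM of 8 genes in the 8 lymph node libraries, on axes from 0; points are libraries, 2 per group, and lines are group means (Tom, Tomato). In the first 6 panels every Tfh point lies below every non-Tfh point, while Rpl7l1 is lowest and Rps27l highest in non-Tfh Tomato+ cells.

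Within each Tomato state, with 2 libraries against 2, the direction was the same. Among Tomato+ cells 0 of the 84 genes were called by edgeR, against 0.0766% of all genes. At an unadjusted p below 0.05, 9 were lower and 1 higher (edgeR, against 3.86% and 4.33% of all genes). DESeq2 called 2, 1 lower and 1 (Rpl7l1) higher, among 474 genes in all (2.3%, against 3.53% of all genes). All 48 subunit genes of at least 10 RPKM had negative values there, with a median of -0.46. Over the 84 genes the median among Tomato+ cells was -0.44 and ran from -0.26 (without non-Tfh Tomato+ replicate 2) to -0.52 with 1 library left out. Among Tomato- cells it was -0.49, and -0.28 without replicate 1 of either group. In that comparison 0 were called by edgeR, against 0.179% of all genes. At an unadjusted p below 0.05, 12 were lower and 0 higher (edgeR, against 4.44% and 4.58% of all genes). DESeq2 called 7, all lower, among 606 genes in all (8.05%, against 4.51% of all genes). There 47 of the 48 were negative, with a median of -0.55. Tfh libraries did not overlap with non-Tfh libraries and were lower for 43 of the 84 genes among Tomato+ cells (51.2%, against 17% of all genes) and for 37 among Tomato- cells (44.0%, against 17%). Higher without overlap were 5 (6.0%, against 22.3%) and 6 (7.1%, against 20%).

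**Figure D4:**
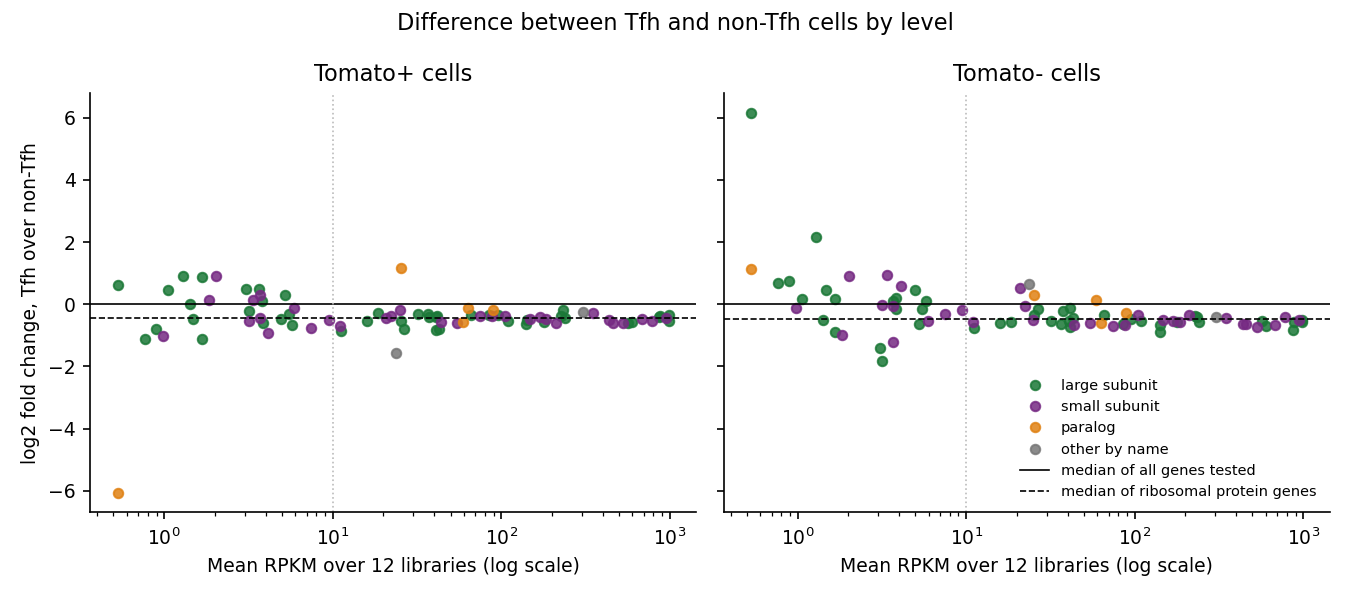
Log2 fold change of Tfh over non-Tfh cells for each tested gene against its mean RPKM (log axis), among Tomato+ cells (left) and Tomato- cells (right); the solid line is the median of all genes tested, the dashed line that of the 84 genes and the dotted line marks 10 RPKM. Above 10 RPKM the subunit genes form a band near -0.5, and below it they scatter on both sides of 0.

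The interaction of Tfh state with Tomato, which tests whether the difference depends on T-bet history, called 0 of the 84 genes (edgeR), as it called 0% of all genes, and 0 of the 84 reached an unadjusted p below 0.05, against 3.22% of all genes above 0 and 3.13% below. DESeq2 also called 0. The smallest adjusted p were those of Rplp0 (0.40 ± 0.22 on the log2 scale, adjusted p = 0.862), Rps19bp1 (-2.21 ± 1.26, adjusted p = 0.867) and Rpl7l1 (0.85 ± 0.50, adjusted p = 0.882).

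The libraries of 1 group also shifted together, and by amounts that approach the difference between Tfh and non-Tfh cells. In non-Tfh Tomato- cells replicate 1 exceeded replicate 2 for 44 of the 48 subunit genes of at least 10 RPKM, with a median of 0.31 on the log2(RPKM + 1) scale. In Tfh Tomato- cells replicate 2 was the higher for 44 of the 48, by a median of 0.31. The other 2 groups shifted less. Tfh Tomato- replicate 1 was the lowest of the 8 lymph node libraries for 33 of the 48 genes, and non-Tfh Tomato- replicate 1 was the highest for 30. Genes that shift together in a library are not independent, so the counts of genes above do not stand for that many separate observations. The test counts libraries and not genes.

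Markers of other cells differed between the lymph node libraries and are given beside these results. The 11 macrophage and monocyte markers, of which at most 1 had no reads in any library, summed to 819 to 1123 RPKM in the 4 Tomato- libraries and 95.7 to 315 in the 4 Tomato+ libraries, and within Tomato- cells they were higher in non-Tfh (1112 to 1123) than in Tfh libraries (819 to 1000), while within Tomato+ cells they were lower (95.7 to 153 against 258 to 315). The part of macrophages and monocytes in the result was not tested. The 9 neutrophil markers summed to 366 and 450 RPKM in the 2 Tomato- replicate 2 libraries, 87.7 in non-Tfh Tomato+ replicate 1 and 0.754 to 10.2 in the other 5, where Mpo and Elane had no reads in any of the 8. Without the 2 Tomato- replicate 2 libraries the median of the tested genes was -0.54 in place of -0.45, and 0 were called. With 3 libraries on each side 36 genes were lower and 2 higher without overlap (42.9% and 2.38%), against 6.21% and 9.03% of all genes, counts that cannot fall when libraries are removed. Among Tomato- cells alone, now 1 library against 1, the median was -0.80 in place of -0.49, and the median of the interaction was 0.34 in place of 0.01. The 5 naive T cell markers summed to 1233 and 1706 RPKM in non-Tfh Tomato- cells and 673 to 892 in the other 6. By gene, 4 of the 5 were lower and 1 higher in Tfh cells in each Tomato state. Their median log2 fold change was -0.72 among Tomato+ and -0.92 among Tomato- cells. Averaged over Tomato it was -0.82, and 2 of the 5 were called lower (edgeR; 40%, against 0.519% of all genes). The 30 cell cycle genes summed to 305 to 620 RPKM in Tfh and 254 to 519 in non-Tfh cells. By Tomato their sums did not overlap, at 254 to 380 RPKM in Tomato- and 398 to 620 in Tomato+ libraries. In the averaged Tomato comparison 28 of the 30 were higher in Tomato+ cells, with a median log2 fold change of 1.04, and 1 was called (edgeR; 3.33%, against 0.656% of all genes). The part of neutrophils or of naive or dividing cells was not tested, here or in the Tomato comparison below.

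Comparing Tomato+ with Tomato- cells asks what goes with a history of T-bet expression. In Tfh cells 0 of the 84 genes were called (edgeR), against 0.111% of all genes, with 0 higher and 1 lower at an unadjusted p below 0.05 (3.18% and 2.65% of all genes). In non-Tfh cells 0 were called, against 0.332%, again with 0 higher and 1 lower (4.48% and 4.46%). Averaged over both kinds of cells 0 were called, against 0.656%, and 0 reached an unadjusted p below 0.05, against 5.83% higher and 5.14% lower. DESeq2 and limma called 0 in each of the 3. For the 48 subunit genes of at least 10 RPKM the median log2 fold change was 0.08 in Tfh cells, 0.00 in non-Tfh cells and 0.04 averaged, beside 0.01, 0.00 and 0.00 for all genes. Single libraries moved the Tomato medians across 0. Over all tested genes of the set the median in Tfh cells was 0.06, and it was -0.14 without Tfh Tomato- replicate 1 and 0.25 without Tfh Tomato- replicate 2. In non-Tfh cells it was 0.00, with 0.19 without non-Tfh Tomato- replicate 1, -0.10 without non-Tfh Tomato- replicate 2 and -0.17 without non-Tfh Tomato+ replicate 2. The averaged median, 0.04, ran from -0.07 to 0.13. In the average, the middle of these 48 genes ran from -0.02 to 0.15. Without overlap between the 4 and 4 libraries, the paralog Rpl36al was higher in Tomato+ cells and Rps12 and Rps13 were lower, 1 and 2 of 84 genes beside 3.11% and 2.23% of all genes. With fewer libraries such counts can only rise: 5 were lower without non-Tfh Tomato- replicate 2 (5.95%, against 3.95% of all genes) and 7 without both Tomato- replicate 2 libraries (8.33%, against 7.53%).

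The smallest adjusted p here were those of Rpl7l1 or Rps19bp1, which are not subunit genes. Abundant subunit genes were among those that followed. Rpl7l1, a paralog of Rpl7 that takes part in the assembly of the large subunit, measured 10.7 and 10.5 RPKM in non-Tfh Tomato+ cells and 18.7 and 24.4 in non-Tfh Tomato- cells (log2 fold change -0.997 ± 0.358, adjusted p = 0.463). Rps19bp1 measured 4.57 and 10.1 RPKM in Tfh Tomato+ cells and 37.6 and 35.5 in Tfh Tomato- cells (-2.34 ± 0.92, adjusted p = 0.814). In both the 2 groups did not overlap, and neither passed. Rpl4 (0.27 ± 0.13, adjusted p = 0.833), Rplp0 (0.28 ± 0.16, adjusted p = 0.841), Rpl39l (adjusted p = 0.844) and Rps3 (0.26 ± 0.17, adjusted p = 0.879) followed in Tfh cells. In non-Tfh cells Rpl23a (adjusted p = 0.635), Rps27l, Rps12 (adjusted p = 0.767) and Rpl29 (adjusted p = 0.780) followed. Averaged over both, Rpl7l1 (-0.57 ± 0.25, adjusted p = 0.460) and Rps19bp1 (-1.23 ± 0.63, adjusted p = 0.545) were again first, before Rpl4 (adjusted p = 0.589), Rpl23a and Rps3 (adjusted p = 0.649).

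In the spleen, cells with present ZsGreen were compared with cells that keep only the Tomato mark. There 1 of the 85 tested genes was called, Rpl14, and it was higher in ZsGreen+ cells, while 23.8% of all 12918 genes tested were called, 11.4% higher and 12.4% lower. Rpl14 measured 167 and 173 RPKM in ZsGreen+ cells and 128 and 142 in ZsGreen- cells, 4 values without overlap (log2 fold change 0.29 ± 0.08, adjusted p = 0.0305). At an unadjusted p below 0.05, 9 genes were higher and 0 lower, against 17% and 18.1% of all genes. For 30 genes (35.3%) both ZsGreen+ libraries lay above both ZsGreen- libraries and for 3 (3.5%) both lay below, against 35.8% and 26.9%. The median over the 85 genes was 0.13, and over all genes 0.00. Rpl10l, Rpl23a and Rpl3l failed the filter.

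Next in the spleen came Rpl7l1 with 36.3 and 37.2 against 32.6 and 28.2 RPKM (0.24 ± 0.08, adjusted p = 0.0677) and Rpl3, which lines the peptidyl transferase centre, with 57.7 and 58.0 against 39.1 and 50.2 RPKM (0.33 ± 0.12, adjusted p = 0.0710). Rpl23 measured 56.0 and 55.6 against 36.3 and 48.4 RPKM (0.36 ± 0.13, adjusted p = 0.0753). Rps9 measured 950 and 960 against 676 and 844 RPKM (0.29 ± 0.11, adjusted p = 0.0862). In the 3 subunit genes the ZsGreen+ libraries were close to each other and the ZsGreen- libraries far apart.

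That spread was general. ZsGreen- replicate 1 was the lowest of the 4 spleen libraries for 44 of the 48 subunit genes of at least 10 RPKM, and ZsGreen- replicate 2 was the highest for 23. The 2 ZsGreen- libraries differed by a median of 0.41 on the log2(RPKM + 1) scale for these genes and by 0.09 for all genes at that level, while the 2 ZsGreen+ libraries differed by 0.07 and 0.08. The spleen result rests on which ZsGreen- library is used. Without ZsGreen- replicate 2, 34 of 86 genes were called, all higher (39.5%, against 24.8% of all genes in that fit), with a median of 0.36. Without ZsGreen- replicate 1, the median was -0.06 and 2 were called, Rpl7l1 higher and Rps26 lower. Rpl14 was called in 1 of the 4 fits that leave out 1 library, with fold changes of 0.20 to 0.38. Markers of neutrophils (9 genes, none without reads) summed to 775 and 1047 RPKM in the 2 ZsGreen- libraries and 1138 and 1192 in the 2 ZsGreen+ libraries, and their part in the result was not tested. Markers of macrophages and monocytes (11 genes, none without reads) summed to 312.5 and 344 RPKM in ZsGreen- and 489.6 and 397 in ZsGreen+ libraries. Their part was not tested either. Other markers differed more between the 2 groups than within them. Those of NK and innate-like T cells (6 genes) summed to 10.7 and 10.8 RPKM in ZsGreen- and 104.6 and 99.8 in ZsGreen+ libraries, and those of dendritic cells (8 genes) to 10.8 and 9.61 against 38.3 and 43.7. Naive T cell markers (5 genes) summed to 840.4 and 855 against 334 and 288, and CD4 T cell markers to 3094 to 3164 against 2483 to 2535. No gene of these lists was without reads, and their part in the result was not tested.

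The 8 paralogs did not behave as 1 group. Rpl10l, a testis form of Rpl10, had no reads in any library, and Rpl3l, a muscle form of Rpl3, stayed between 0 and 0.239 RPKM. Rpl39l, a paralog of Rpl39 known from testis, reached 2.42 RPKM in 1 Tfh Tomato- library and was at 0 in 4 of the 12. Rps4y2 measured 12.3 RPKM in Tfh Tomato+ replicate 1, 0 to 0.0437 in the other 7 lymph node libraries and 2.88 to 5.58 in the spleen, so its lymph node level came from a single library.

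Rpl22l1, which can replace its paralog Rpl22 in ribosomes and is known for its part in T cell development, measured 46.7 to 84.0 RPKM, above the 23.7 to 53.7 of Rpl22 in each of the 12 libraries. It had no difference that passed (log2 fold change -0.37 ± 0.38 in Tfh over non-Tfh cells, adjusted p = 0.827, and -0.13 ± 0.14 in the spleen, adjusted p = 0.551). Rpl36al stood at 50.8 to 117 RPKM while its paralog Rpl36a stood at 0.108 to 1.83. Because the 2 encode nearly the same protein, their split of reads is uncertain. In the average Rpl36al was 0.47 ± 0.31 higher in Tomato+ cells (adjusted p = 0.679). Rps27l, known as a target of p53, measured 73.1 and 72.9 RPKM in non-Tfh Tomato+ cells and 32.8 and 39.7 in non-Tfh Tomato- cells (1.04 ± 0.62, adjusted p = 0.661). Its paralog Rps27, read from a non-coding RefSeq transcript, measured 33.0 and 27.1 against 30.4 and 7.15 RPKM there. In Tfh cells Rps27l measured 47.8 and 57.7 with Tomato and 33.2 and 49.9 without it, which overlap.

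Of the 5 paralogs tested in the lymph node, only Rpl7l1 had a positive value in Tfh over non-Tfh cells averaged over Tomato. It measured 27.9 and 27.2 RPKM in Tfh Tomato- cells, 24.1 and 26.2 in Tfh Tomato+ cells, and in non-Tfh cells the values given above. The log2 fold change was 1.15 ± 0.36 among Tomato+ cells (adjusted p = 0.460) and 0.73 ± 0.25 averaged (adjusted p = 0.302). Rpl7 itself, the subunit that Rpl7l1 resembles, measured 73.1 to 104 RPKM in the Tfh and 103 to 126 in the non-Tfh libraries (-0.53 ± 0.21, adjusted p = 0.358). The ranges of both genes overlapped slightly between the 2 kinds of cells. The pseudogene Rpl34-ps1 was listed at 224 to 370 RPKM, and its reads may be those of other copies of Rpl34. It had -0.33 ± 0.17 in Tfh over non-Tfh cells (adjusted p = 0.495). Rps19-ps3 stayed at 0 to 0.371 RPKM in the lymph node and 0.732 to 2.09 in the spleen.

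The subunit gene Fau carries another name because its protein is made as a fusion with a ubiquitin-like protein. Fau measured 8.20 to 14.7 RPKM in the lymph node, and its value in Tfh over non-Tfh cells was -0.14 ± 0.80 (adjusted p = 0.996).

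Other genes of the translation machinery were read in the same fits, from lists by function. The 15 translation genes with a TOP start outside the ribosome had a median of -0.44 between Tfh and non-Tfh cells, with 14 of 15 negative, 0 called (1.07% of all genes) and 5 lower at an unadjusted p below 0.05 (5.77% of all genes). They were led by Gnb2l1, which encodes the ribosome-bound scaffold RACK1, at 188, 199, 182 and 215 RPKM in Tfh and 319, 245, 288 and 338 in non-Tfh libraries (-0.67 ± 0.15, adjusted p = 0.0989). Next were the initiation factor gene Eif3f (-0.52 ± 0.16, adjusted p = 0.240) and the elongation factor genes Eef2 (-0.48 ± 0.15, adjusted p = 0.241) and Eef1a1 (-0.52 ± 0.17, adjusted p = 0.254). Averaged over Tomato, the other lists lay nearer to 0. The median was -0.20 for 23 initiation factor genes, -0.28 for 35 ribosome biogenesis genes, 0.21 for 12 genes of RNA polymerase I, which makes ribosomal RNA, and 0.01 for 75 genes of the mitochondrial ribosome. None of their members was called in that comparison by edgeR, and in that order 2, 3, 0 and 2 were lower and 0, 0, 1 and 0 higher at an unadjusted p below 0.05, against 5.77% and 6.23% of all genes. The 2 Tomato states differed for ribosome biogenesis. Its median was -0.46 among Tomato- cells, beside -0.43 for the TOP genes. Among Tomato+ cells it was -0.08, beside -0.45 for the TOP genes. The 21 growth regulators had an averaged median of -0.34, with 16 negative. Among them Mxd1, which encodes a repressor that competes with MYC, had the smallest adjusted p (-1.10 ± 0.21, adjusted p = 0.0542).

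**Figure D5:**
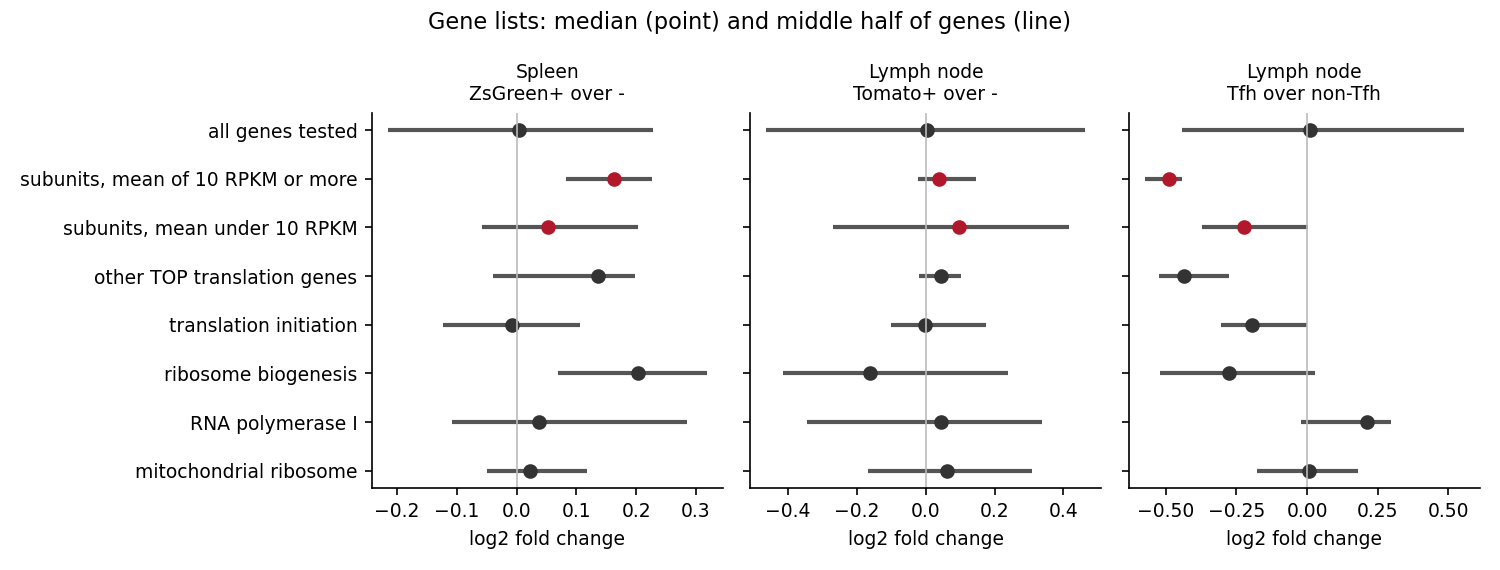
Median log2 fold change (points) and the range of the middle of the genes (lines, first to last quartile) for gene lists in 3 comparisons, each on its own axis; red points are the subunit genes. In Tfh over non-Tfh cells the subunit genes of at least 10 RPKM (-0.49) and the other TOP genes (-0.44) lie lowest, and the mitochondrial ribosome lies at 0.01.

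In the spleen the lists stood in another order. Of 35 ribosome biogenesis genes, 11 rose and 1 fell in ZsGreen+ cells, against 11.4% and 12.4% of all genes, with a median of 0.20. In the same comparison all 6 markers of NK and innate-like T cells rose and 5 of 5 naive T cell markers fell. Also, 3 of 8 dendritic cell markers and 3 of 11 macrophage and monocyte markers rose, and 5 of 9 CD4 T cell markers fell. The part of such cells in the changes of these lists was not tested. Bysl, needed to mature the small subunit, rose by 0.73 ± 0.08 on the log2 scale, from 26.1 ± 1.18 to 44.5 ± 3.55 RPKM (SD, n = 2; adjusted p = 0.000139), and Nop10, Gnl3 and Nop56 rose by 0.50, 0.55 and 0.44, while Wdr12 fell by 0.53. Myc, which drives many of these genes, rose by 0.66 ± 0.08 (34.8 ± 3.37 to 56.3 ± 1.67 RPKM, SD, n = 2; adjusted p = 0.000378), and of 22 growth regulators 5 rose and 1 fell. Of 15 other TOP genes 1 rose, Eef1g (0.39 ± 0.10, adjusted p = 0.0163), and of 12 RNA polymerase I genes 3 rose and 1 fell. Of 75 mitochondrial ribosome genes 1 rose and 4 fell, led by Mrps6 (-0.90 ± 0.11, adjusted p = 0.000302). Of 23 initiation factor genes 0 were called. At an unadjusted p below 0.05, 4 of these were higher (17.4%) and 1 lower (4.35%), against 17% and 18.1% of all genes. Of 30 cell cycle genes 2 rose and 19 fell, and their summed level was 733 to 784 RPKM in ZsGreen- and 613 to 650 in ZsGreen+ cells.

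Among subunit genes of at least 10 RPKM with a start sequence, the median log2 fold change was -0.56 for the 13 with a run of at least 8 bases, such as Rpl14 and Rpl13a above, and -0.47 for the 21 without, such as Rplp0 and Rps3. The difference between these medians was not tested.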

How the data were processed

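Polyadenylated RNA was sequenced, per the labels' protocols. The authors deposited, for each library, whole-number read counts and RPKM for 29257 RefSeq transcript rows. The spleen headers name the length column as counts and the reverse, so the column proportional to RPKM times length was used as counts. Tools in the submitters' processing notes are CASAVA 2.18, Bowtie2, SICER 1.1 and edgeR with build mm9, and the sources used here do not give their roles or the treatment of strand and of reads that match several places.

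The row with the most reads was kept for each of 22878 symbols, since 4019 symbols (10 of the 88 genes) had more than 1 row. Counts were tested with edgeR 4.0.16 (R 4.3.3; filterByExpr, TMM, quasi-likelihood F test), and p-values were adjusted over all genes by the Benjamini-Hochberg method. The 4 spleen libraries were fitted alone and the 8 lymph node libraries together, with 2 and 4 residual degrees of freedom. Fold changes are log2, and the SE is the absolute fold change divided by the square root of F. Fold changes of genes with hardly any reads hinge on the prior count. The fit was also run on simulated counts. They were drawn with the same spread for both tissues, far below that of the lymph node libraries. That run therefore does not show how the test performs in the lymph node.

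Members and lists were chosen with earlier results of these data known. Named were all paralogs and non-ribosomal members, the 5 highest and 5 lowest subunit genes, called members, where fewer than 5 were called the 5 with the smallest adjusted p (3 for the interaction), and up to 4 genes of each other list. Rps2, Rps26, Rpl7, Rpl11, Rpl22, Rpl30, Rpl31 and the genes listed for not overlapping were named after their values were seen. Alternatives were DESeq2 1.42.0, limma 3.58.1 on log2(RPKM + 1) and log2(RPKM + 0.1), other scalings, no filter, the longest row per symbol, fewer libraries and the replicate number as a block. The deposited DNase islands (score) were not used here, because no gene positions on their build were at hand. Results of 2 genes are not reported here.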

Additional observations from a re-analysis of the deposited data

How the results depend on the processing

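The median of the tested genes in Tfh over non-Tfh cells stayed negative under every setting run. With libraries left out it ran from -0.54 to -0.34 averaged over Tomato, from -0.52 to -0.26 among Tomato+ cells and from -0.80 to -0.28 among Tomato- cells. Counts of called genes depended on the test. In the spleen, 1 call became 2 with DESeq2, 2 with limma at either pseudocount (1 or 0.1), 10 without a low-count filter (of 3680 genes called in all) and 0 to 34 with 1 library left out, and the median log2 fold change, 0.13, ran from -0.0623 (without ZsGreen- replicate 1) to 0.36 (without ZsGreen- replicate 2) with 1 library left out. In Tfh over non-Tfh cells DESeq2 called 2 genes among Tomato+ cells, 7 among Tomato- cells and 11 averaged, where edgeR called 0, 0 and 1. Calls over all genes rose too, from 9, 21 and 126 to 474, 606 and 826. The DESeq2 calls were 2.3%, 8.05% and 12.6% of the genes of the set, against 3.53%, 4.51% and 6.15% of all genes. The average also gave 2 calls with limma at a pseudocount of 1, 0 with total counts only, 0 without the 2 Tomato- replicate 2 libraries and 0 with any 1 library left out. The 2 limma calls in the average were 2.38% of the tested genes of the set, against 1.21% of all genes. The 3 Tomato comparisons and the interaction gave 0 calls in all settings. With a library left out, its group has 1 sample, which is assumed to vary like the others. Deviations of same-numbered libraries from their group means were hardly correlated across genes (-0.0172 to 0.0362 over 10776 genes). With 2 libraries per group this cannot exclude that the replicate numbers pair the libraries. With the replicate block the spleen count was 7 (8.24%, against 26% of all genes) and the averaged Tfh count was 0 (against 0.639%). The non-overlap counts without single libraries were added after seeing the data. The alternatives for DNase islands were not run.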
